A study of Mus musculus with 3 samples.

Results

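DNA replication genes were examined in activated regulatory T cells of the mouse, as a set of 41 named genes taken by symbol from the 55536 genes of the GENCODE M21 annotation (mouse build mm10). The set holds the genes for origin recognition, helicase loading, the replicative helicase and its activators, the replicative polymerases, the sliding clamp and its loader, single-strand binding, Okazaki fragment maturation and deoxynucleotide supply. Regulatory T cells are CD4+ T cells that carry the transcription factor Foxp3 and restrain immune responses. The data are polyA-selected RNA sequencing of primary cells labelled as activated regulatory T cells from male mice aged 3 weeks, in 3 libraries, numbered in the labels as technical replicates (libraries 1, 2 and 3 here) from a single biological replicate. There is 1 group and no untreated, resting or other control. The labels give the source as the whole organism, no genotype and no agent of activation, and they do not say at which step the libraries parted. The SDs below therefore measure only the spread between these libraries. The p-values set the differences between these libraries against counting error alone.

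Replication starts when the origin recognition complex (ORC) marks an origin and Cdc6 and Cdt1 load the ring of Mcm2 to Mcm7 onto DNA in G1. In S phase Cdc45 and the GINS complex join the ring to form the active helicase, polymerase alpha-primase lays down primers, and polymerases delta and epsilon extend them with the clamp Pcna, which the RFC complex loads. Most of these genes are transcribed before and during S phase, many of them through E2F factors, and T cells leaving quiescence are known to induce them.

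The promoter windows of the set were searched for fixed strings of the type that E2F factors bind. Of the 41 genes, 34 matched a RefSeq window (GRCm38.p6) running from 250 bases before to 50 bases after an annotated start, with 42 windows in all. Gins1, Gins2, Gins4, Mcm4, Pole, Prim2 and Rfc2 had no matching window. The 160 bases before the start are printed 5′ to 3′ on the gene's strand for 5 genes that recur below, with E2F-type motifs in capitals. They are Cdc6 at chr11:98907991-98908150, Mcm5 at chr8:75109349-75109508, Mcm6 at chr1:128359706-128359865 (minus strand), Orc1 at chr4:108579294-108579453 and, as an example with no such motif, Rrm2 at chr12:24708094-24708253.
Cdc6: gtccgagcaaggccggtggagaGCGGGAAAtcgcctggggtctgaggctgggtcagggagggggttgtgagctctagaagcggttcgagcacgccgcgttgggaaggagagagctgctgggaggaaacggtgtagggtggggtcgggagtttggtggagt
Mcm5: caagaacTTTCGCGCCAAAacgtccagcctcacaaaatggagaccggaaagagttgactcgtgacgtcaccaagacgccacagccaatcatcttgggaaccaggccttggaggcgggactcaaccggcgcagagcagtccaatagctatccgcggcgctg
Mcm6: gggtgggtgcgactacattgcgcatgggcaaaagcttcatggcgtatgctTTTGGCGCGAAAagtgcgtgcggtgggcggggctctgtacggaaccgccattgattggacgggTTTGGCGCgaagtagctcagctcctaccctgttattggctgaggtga
Orc1: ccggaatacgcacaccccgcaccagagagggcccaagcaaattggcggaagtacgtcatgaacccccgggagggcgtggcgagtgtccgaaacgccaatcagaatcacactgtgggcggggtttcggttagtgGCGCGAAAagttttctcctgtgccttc
Rrm2: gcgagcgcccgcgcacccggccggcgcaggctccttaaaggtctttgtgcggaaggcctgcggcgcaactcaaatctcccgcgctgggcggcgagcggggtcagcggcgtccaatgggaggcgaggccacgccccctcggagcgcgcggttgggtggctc
The E2F-type motifs searched on both strands were TTTCGCGC, TTTGGCGC, TTTCCCGC, TTTGGCGG and TTTCCCGG. In Mcm5 and in the upstream pair of Mcm6, a motif on 1 strand overlaps a motif on the other. At least 1 E2F-type motif was present for 16 of 34 members (47.1%), against 4.10% of 27025 genes with a window. By windows of the same length, 38.1% of the 42 member windows and 3.59% of all 32851 windows held one. The 16 were Mcm3, Mcm5, Mcm6, Mcm7, Cdc6, Cdt1, Gins3, Orc1, Orc3, Orc4, Pola1, Pola2, Pold1, Rfc3, Rpa1 and Lig1. Other promoter motifs were also more frequent in the members than in all genes with a window. The GC box GGGCGG, bound by Sp1-type factors, was present for 73.5% of members and 38.2% of genes, the CCAAT box for 64.7% and 41.1%, and the E box CACGTG for 20.6% and 8.09%. These are matches of letters, with no measure of binding in these cells, and base composition was not matched. Only exact matches were counted, so a window listed without a motif is not shown to lack an E2F site.

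Every one of the 41 genes was detected, meaning at least 1 TPM (transcripts scaled to a fixed total, a level per transcript length) in each library. Over protein-coding genes, 10601 of 22028 met the same rule (48.1%). The median of the members' mean levels was 41.4 TPM and that of all detected protein-coding genes was 30.1 TPM, with 26 of the 41 members above the latter. Mean levels of the members spanned 45.8-fold, from Orc1 at 3.47 ± 1.18 TPM (SD, n = 3) to Pcna at 159 ± 19.7 TPM. The order of the 41 genes was alike in the libraries, with Spearman's rho across genes of 0.92 to 0.94, a description over genes that share each library and are not independent replicates. Between 54 and 9177 estimated reads stood behind each member in each library.

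**Figure D1:**
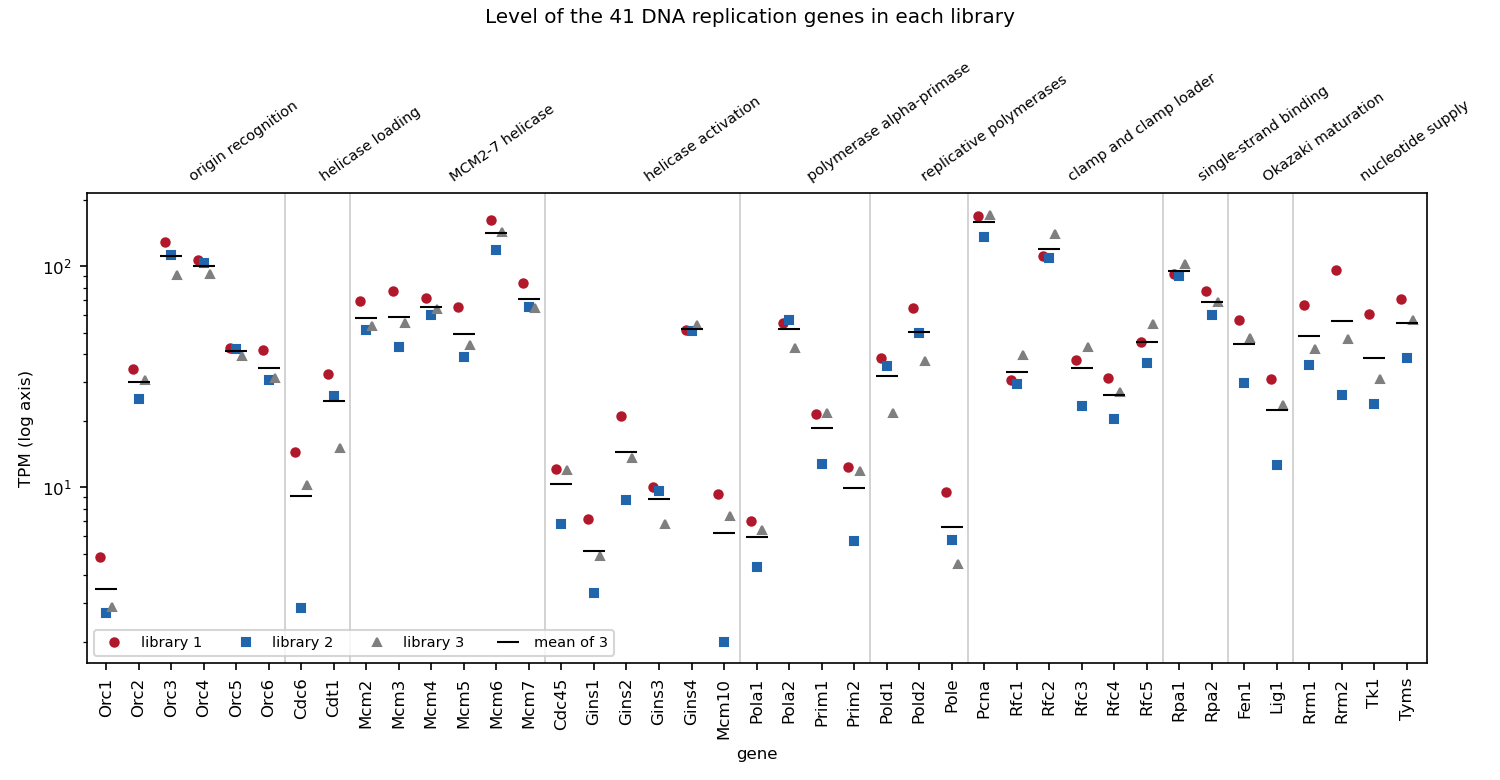
Level of each of the 41 genes in TPM (log axis), grouped by role, with 1 point for each of the 3 libraries and a bar at their mean. Pcna, Mcm6 and Rfc2 have the highest means and Orc1 the lowest, and in Cdc6 and Mcm10 library 2 lies far below the others.

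The loading of the helicase was represented by ORC, Cdc6 and Cdt1. Orc1, the ORC subunit whose protein is turned over through the cell cycle, was the lowest member, at 4.83, 2.69 and 2.88 TPM in libraries 1, 2 and 3 (gene at chr4:108579423-108614833). Orc3 and Orc4, core subunits of the ring, were at 111 ± 18.4 and 101 ± 7.40 TPM. In every library Orc1 lay below each of the 5 other ORC subunits, with log2 ratios of TPM from -3.15 ± 0.29 to Orc2 to -5.04 ± 0.33 to Orc3. Orc2, Orc5 and Orc6 lay between, at 30.0 ± 4.62, 41.4 ± 1.88 and 34.5 ± 6.42 TPM, and no pair of these 3 differed beyond the spread, taken here and below as 1 sign in all libraries and a mean over 2 SD. Cdt1, the loader that geminin blocks, was at 32.5, 25.9 and 14.98 TPM, lowest in library 3. Cdc6, the ATPase that brings the helicase to ORC, was at 14.4, 2.85 and 10.2 TPM, with library 2 well under both others.

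The 6 helicase subunits lay closer together than those of ORC. Mcm6 (chr1:128331590-128359664) was the highest, at 162, 118 and 142 TPM, and in every library it exceeded each other subunit. The log2 ratio of Mcm6 to Mcm7, the second highest, was 0.98 ± 0.14, and that of Mcm5, the lowest, to Mcm6 was -1.53 ± 0.20. Of the 10 pairs without Mcm6, 3 differed beyond the spread, namely Mcm2 below Mcm7, Mcm5 below Mcm7 and Mcm3 above Mcm5, with log2 ratios of -0.29, -0.55 and 0.24. The highest subunit exceeded the lowest by 2.47-fold, 3.04-fold and 3.23-fold in libraries 1, 2 and 3, against 26.5-fold, 42.0-fold and 32.0-fold in ORC. Mcm2, Mcm3, Mcm4 and Mcm5 had means of 58.4, 58.7, 65.4 and 49.5 TPM.

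The helicase activators were among the lowest members, with Gins4 apart. Cdc45, which joins the MCM ring at firing, was at 12.1, 6.82 and 12.0 TPM, low in library 2. Gins1, Gins2 and Gins3 had means of 5.12, 14.4 and 8.80 TPM, and Gins4 (also called Sld5) was at 51.4, 50.8 and 54.3 TPM. Gins4 exceeded each of the other 3 GINS subunits beyond the spread, by 1.94 ± 0.63 to 3.42 ± 0.55 on the log2 scale. The GINS complex is known to hold its subunits in equal number. Mcm10, a factor needed to activate the loaded helicase, was at 9.28, 2.00 and 7.40 TPM.

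Polymerase alpha-primase showed a fixed order of subunits in every library, the accessory subunit Pola2 above the primase subunits Prim1 and Prim2 and these above the catalytic Pola1. All 6 pairs differed beyond the spread. Pola2 was at 55.6, 57.0 and 42.8 TPM and Pola1 at 7.02, 4.37 and 6.42 TPM. Of the replicative polymerases, the delta subunits Pold1 (catalytic) and Pold2 were at 31.8 ± 8.93 and 50.6 ± 13.6 TPM, and Pole, the catalytic subunit of polymerase epsilon, at 6.58 ± 2.59 TPM. The log2 ratio of Pold1 to Pold2 was -0.68 ± 0.16.

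The clamp Pcna (chr2:132249162-132253314) was the highest member, at 169, 136 and 171 TPM. Its loader subunits Rfc1, Rfc3, Rfc4 and Rfc5 had means of 33.3, 34.7, 26.2 and 45.5 TPM, and Rfc2 was at 120 ± 17.1 TPM. Rpa1 and Rpa2, which coat single-stranded DNA, were at 95.2 ± 6.18 and 68.8 ± 8.29 TPM, and Rpa1 exceeded Rpa2 by 0.47 ± 0.18 on the log2 scale. Fen1, the flap nuclease, and Lig1, the ligase that seals Okazaki fragments, were at 44.6 ± 14.0 and 22.3 ± 9.19 TPM. Rrm1 and Rrm2, the large and small subunits of ribonucleotide reductase, had close means of 48.2 and 56.3 TPM, and their log2 ratio changed sign between libraries (-0.07 ± 0.49). In all, 38 of 55 subunit pairs in 8 complexes differed beyond the spread.

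Part of each gene level stood on transcripts that the annotation does not class as protein coding, and for some members this was the larger part. Rfc2 was the extreme case: protein-coding transcripts took 1.73 ± 0.32% of its TPM, transcripts with a retained intron 82.1% and transcripts classed as targets of nonsense-mediated decay 16.2%. Counted by reads, which do not weight short transcripts up, protein-coding transcripts took 9.96% of Rfc2. Over those transcripts Rfc2 was at 1.54, 2.22 and 2.45 TPM, and its rank among the 41 genes went from 3 to 41, close to Tyms and Gins2 at 2.09 and 2.10 TPM.

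Tyms, thymidylate synthase, had 3.69 ± 0.82% of its TPM and 11.1% of its reads on protein-coding transcripts, and 79.9% of its TPM on transcripts classed as targets of nonsense-mediated decay. Gins2 had 16.4 ± 16.5% of its TPM on protein-coding transcripts, with shares of 16.4% and 32.9% in libraries 1 and 2 and a listed value of 0 in library 3. Gins2 shares 2758 bases of exon with Gse1 on the opposite strand, and whether the reads were counted by strand is not given in the sources used here, so reads of the 2 genes cannot be told apart. Fen1 likewise shares 1910 bases with the antisense gene Gm10143, which held 3.36% to 4.65% as many reads. The gene bodies of Orc2 and Nif3l1 overlap over 19046 bases, those of Orc1 and Gm12743 over 22409 bases, and those of Rfc2 and Lat2 over 1784 bases. These lengths span whole gene bodies, and the exon part of them is not given here. Opposite-strand neighbours also overlap Mcm7, Cdc45, Orc4, Orc6, Pola1, Prim2, Pold1, Pole, Rfc4, Rfc5, Tk1, Lig1 and Fen1. Orc4 had 27.2 ± 4.47% on protein-coding transcripts and 72.8% on processed transcripts, a class without an annotated reading frame.

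By mean TPM over libraries, 7 of 41 members had under 50% on protein-coding transcripts, namely Rfc2, Tyms, Gins2, Orc4, Orc3, Rfc1 and Mcm10. Their shares, averaged over libraries, reached 47.8% in Orc3 and 48.1% in Rfc1, and that of Tk1, just outside by mean TPM, was 49.5%. By the share of reads, the number was 4, Rfc2, Tyms, Gins2 and Orc4. At the other end, Gins3, Gins4, Orc2, Fen1 and Mcm4 stood wholly on protein-coding transcripts in every library, with Mcm6, Cdc45, Mcm2 and Rrm2 above 95%. Over protein-coding transcripts alone the median member level was 24.5 TPM, and 39 of 41 members were at 1 TPM or more in every library. The 2 others were Gins2, listed at 0 in library 3, and Mcm10, with 0.55 TPM in library 2.

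The subunit order depended on this choice in some complexes and not in others. Over protein-coding transcripts alone, Mcm6 still exceeded each other MCM subunit (log2 ratio to Mcm7 1.15 ± 0.17) and Orc1 still lay below each other ORC subunit (log2 ratio to Orc6 -3.15 ± 0.49). Rfc2 instead lay below each other RFC subunit (log2 ratio of Rfc1 to Rfc2 2.96 ± 0.37). Orc4 no longer differed beyond the spread from Orc2, Orc5 or Orc6. Of the 52 pairs that had a ratio in all libraries, 30 differed beyond the spread, and 6 of the 38 pairs above changed sign. These shares are the authors' estimates for overlapping transcript models and carry the error of dividing shared reads.

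**Figure D2:**
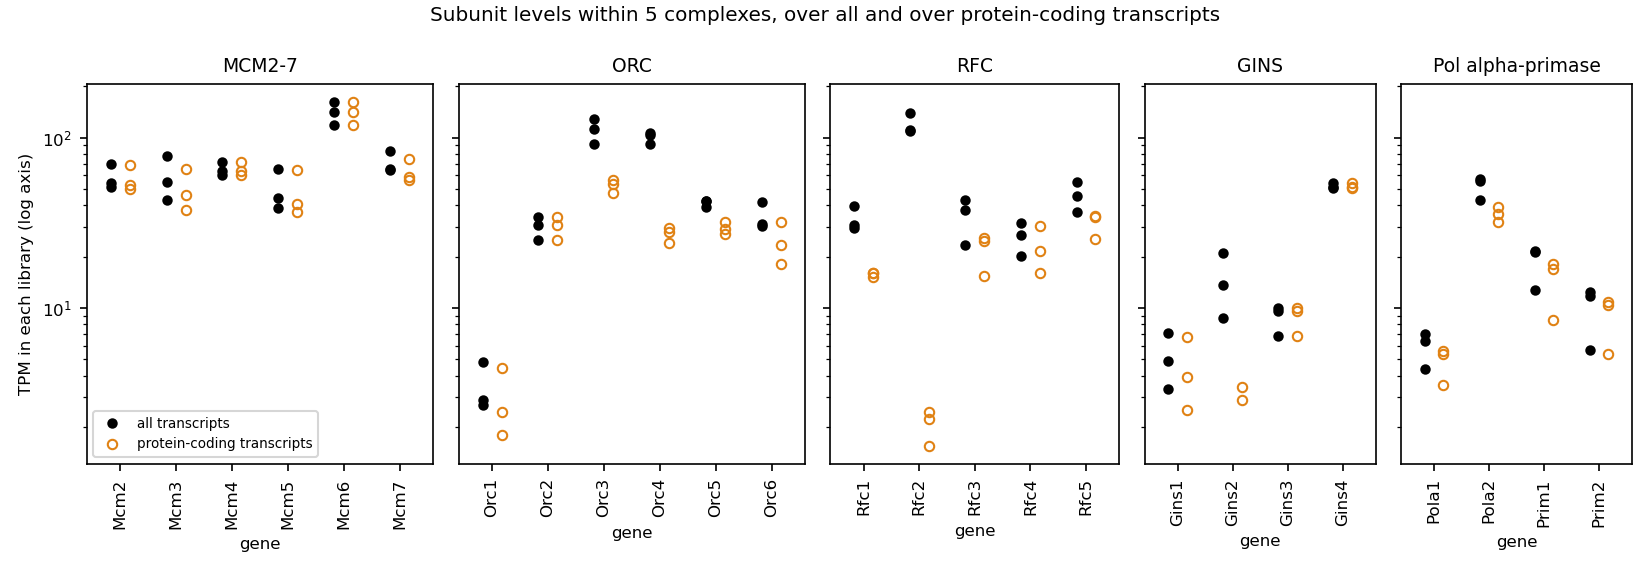
TPM of each subunit in each library (log axis) in 5 complexes, filled points over all transcripts and open points over protein-coding transcripts only (a value of 0 is not drawn). Mcm6 stands above and Orc1 below their partners on both counts, while Rfc2 moves from highest to lowest of its complex.

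**Figure D3:**
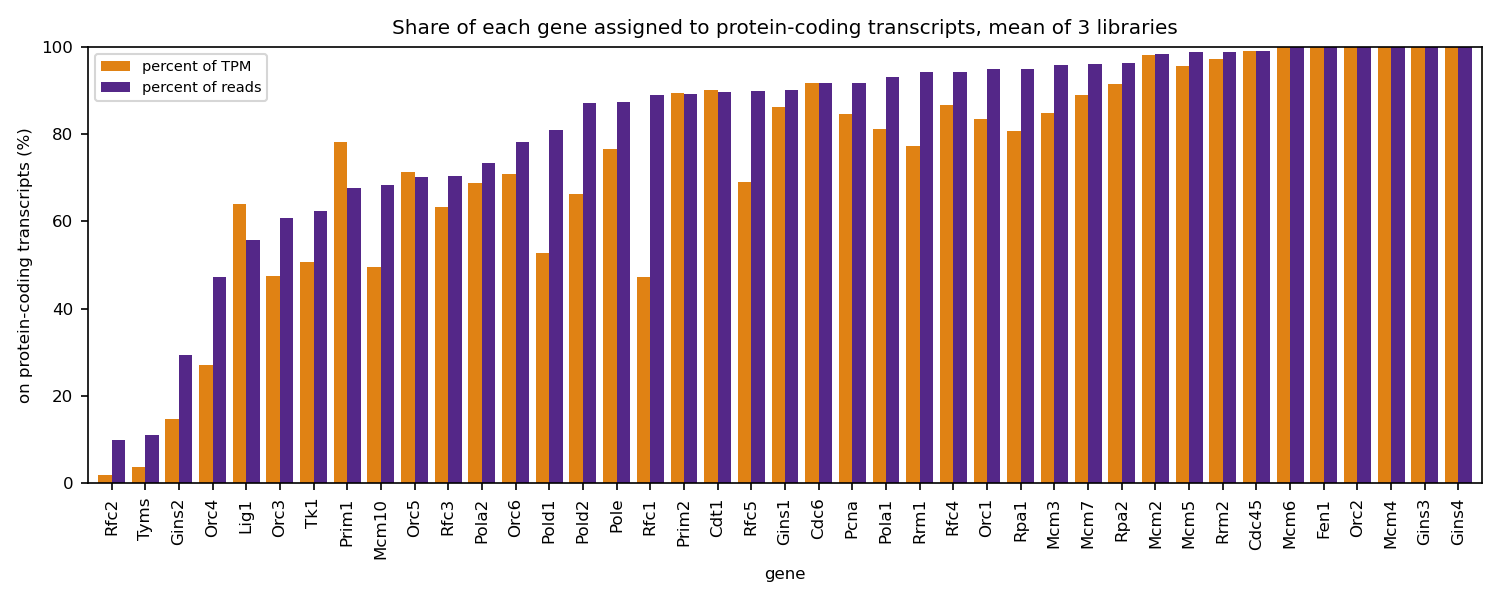
Percent of each gene's TPM and of its reads on protein-coding transcripts, as means of 3 libraries, ordered by the share of reads. Rfc2 and Tyms are the lowest, at 9.96% and 11.1% of reads.

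The libraries differed in most members by more than counting error. A chi-square test of read counts with Benjamini-Hochberg adjustment over 17190 genes called 40 of the 41 members, where 80% of all genes tested and 87.5% of those averaging at least 50 reads were called. Orc5, an ORC subunit, was the exception, at 42.6, 42.3 and 39.2 TPM (adjusted p = 0.548 by that test). Library 1 was the highest, in CPM (reads scaled to the library size after TMM normalization), for 26 called members, against 25.3% of all genes tested. Library 2 was the highest for 2, Orc4 and Pola2 (23.3% of all genes), and library 3 for 12 (31.4% of all genes). The lowest was library 2 for 29 members (23.9% of all genes), library 3 for 10 (31.3% of all genes) and library 1 for 1, Rfc2 (24.8% of all genes).

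Both directions met in 18 members, highest in library 1 and lowest in library 2, where 8.9% of all genes tested showed that order. In 12 members library 1 was over 1.5-fold above the mean of the others, against 9.69% of all genes. In log2(CPM + 0.5), the median member stood 0.37 above the mean of the other libraries in library 1, 0.41 below it in library 2 (a difference of -0.41) and 0.06 above it in library 3, while the medians of all genes tested were 0.00, -0.01 and 0.01. The median fold of library 1 over library 2 was 1.44 in CPM, with 37 of 41 members above 1.

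Each pair of libraries was also tested alone. Between libraries 1 and 2, 34 members were called and higher in library 1 (27.3% of all genes) and 0 in library 2 (26.8% of all genes). The other 7 did not pass the chi-square test of these 2 libraries. Between libraries 1 and 3, 27 were higher in library 1 (33.6% of all genes) and 7 in library 3 (32.5% of all genes). Between libraries 3 and 2, 30 were higher in library 3 (32.9% of all genes) and 8 in library 2 (32.3% of all genes). The 3 pairs share libraries, so these counts are not independent of each other.

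**Figure D4:**
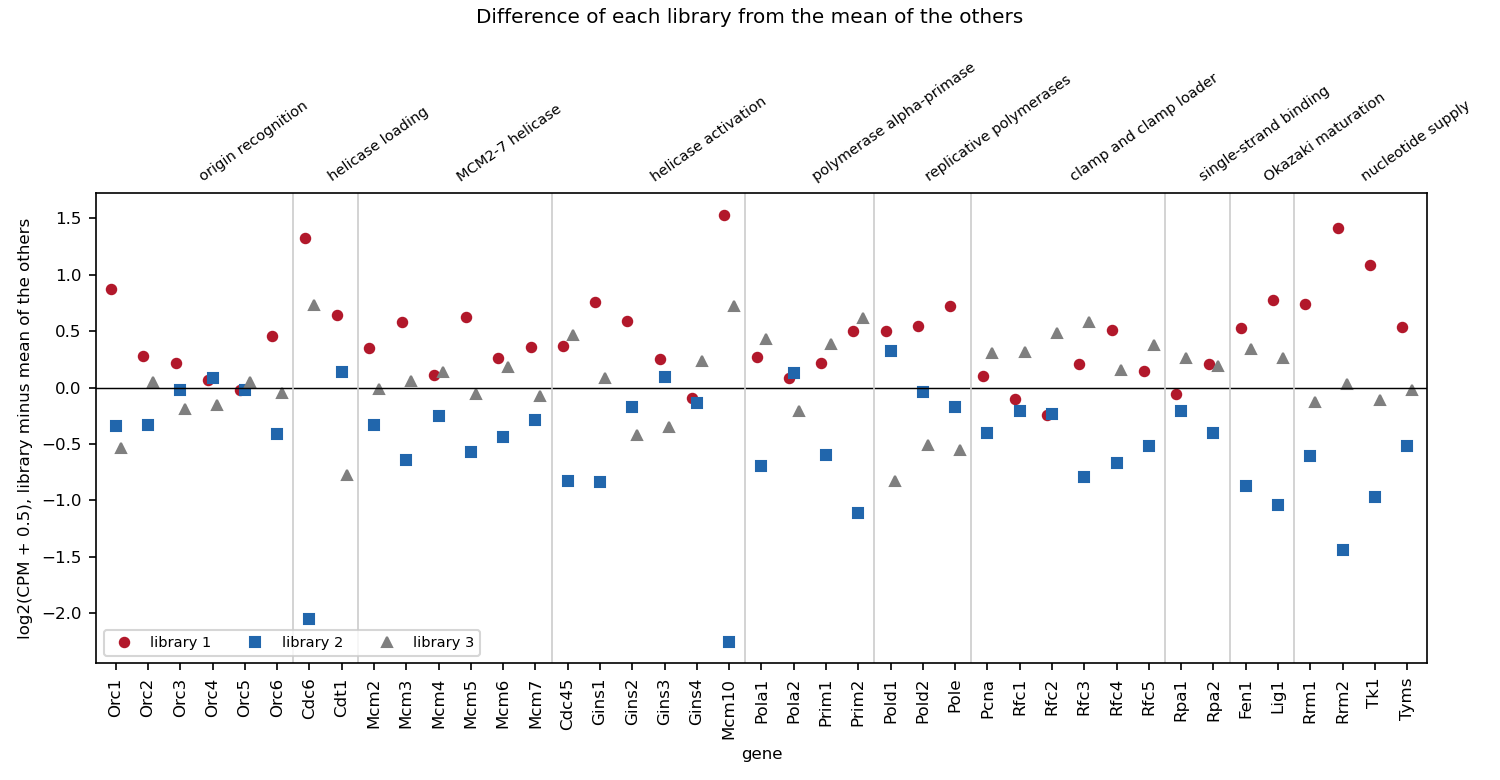
For each of the 41 genes, log2(CPM + 0.5) in a library minus the mean of the other libraries, grouped by role, with 1 point per library. Library 1 is mostly above 0 and library 2 mostly below it, with medians of 0.37 and -0.41, and the replicative polymerases and Cdt1 are lowest in library 3.

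The size and order of these differences varied between roles. The median span, the highest library over the lowest in CPM, was 1.64-fold over members and 1.49-fold over all genes tested. Over the 11109 genes averaging at least 100 reads it was 1.33-fold. Mcm10 spanned the most, 6.67-fold in CPM (522, 73 and 377 estimated reads in libraries 1, 2 and 3), followed by Cdc6 at 5.17-fold (732, 132 and 588 reads). Both had library 2 far below the others. Rrm2 (chr12:24708241-24714146), the reductase subunit made in S phase, was at 95.8, 26.2 and 46.8 TPM and spanned 3.79-fold in CPM. The 4 nucleotide supply genes, Rrm1, Rrm2, Tyms and the salvage kinase Tk1, were all highest in library 1 and lowest in library 2, with a median span of 2.25-fold. Tk1 was at 60.6, 23.9 and 31.0 TPM.

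Okazaki maturation showed the same order in both genes, Lig1 at 30.9, 12.6 and 23.5 TPM and Fen1 at 57.0, 29.5 and 47.4 TPM. All 6 MCM subunits were lowest in library 2 with a smaller median span of 1.38-fold, and 5 of them were highest in library 1. ORC had the smallest median span, 1.27-fold, and within it Orc1 was 2.02-fold higher in library 1 than in library 3. Rpa1 and Rpa2 spanned 1.24-fold and 1.33-fold. The median spans of the MCM, ORC and RPA genes thus lay near the 1.33-fold of all genes averaging at least 100 reads.

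Some roles had a different order. Pold1, Pold2 and Pole were all highest in library 1 and lowest in library 3, as was Cdt1. Pold1 was at 38.4, 35.3 and 21.6 TPM. Of the clamp and clamp loader, 5 of 6 genes were highest in library 3, Rfc4 being the exception, and in polymerase alpha-primase 3 of 4. Rfc3 was at 37.6, 23.3 and 43.3 TPM. For 6 members (Mcm4, Cdc45, Orc4, Orc5, Pola1 and Prim2) the highest library differed between TPM and CPM, and by TPM 32 members were highest in library 1.

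Members with and without an E2F-type motif had overlapping differences. The median fold of library 1 over library 2 was 1.36 in the 16 genes with a motif (0.98 to 5.17) and 1.49 in the 18 without (1.00 to 6.67). Cdc6, with 1 upstream motif, and Rrm2, with none in its window, were both among the 3 genes of widest span.

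The genes that control replication, such as its kinases, cyclins and E2F factors, were all detected. Of 23 licensing and firing control genes, 22 were called between libraries by the chi-square test (80% of all genes tested). Of these, 17 were highest in library 1 (25.3% of all genes), with 11 lowest in library 2 (23.9%) and 10 in library 3 (31.3%). Geminin (Gmnn), the inhibitor of Cdt1, was at 42.5, 23.4 and 34.5 TPM, above Cdt1 in libraries 1 and 3. The kinase Cdc7 and its activator Dbf4 were at 16.5 ± 4.37 and 24.6 ± 1.63 TPM and were both highest in library 3. The cyclins E, which drive entry into S phase, were highest in library 1, Ccne1 at 26.5, 17.1 and 12.4 TPM and Ccne2 at 11.3, 4.77 and 3.61 TPM.

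Among the E2F factors, the repressor E2f4 was the highest, at 145 ± 21.5 TPM, and the activators E2f1, E2f2 and E2f3 were at 6.83 ± 2.85, 30.1 ± 9.19 and 3.94 ± 1.17 TPM. The atypical repressors E2f7 and E2f8 were at 3.36 ± 2.18 and 5.44 ± 5.98 TPM, E2f8 with 12.3, 2.24 and 1.74 TPM. Library 1 held the highest CPM of E2f1, E2f2, E2f3, E2f4, E2f7 and E2f8. Ddb1, an adaptor of the ligase that degrades Cdt1, and the pocket protein Rbl2 were the next highest of the list, at 128 ± 26.9 and 105 ± 29.0 TPM.

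Other fork and origin proteins numbered 28, of which 27 were called (80% of all genes tested were). Of these, 15 were highest in library 1, 4 in library 2 and 8 in library 3, and 9 were lowest in library 1, 14 in library 2 and 4 in library 3. Over all genes tested, 25.3%, 23.3% and 31.4% were called and highest in libraries 1, 2 and 3. The shares called and lowest were 24.8%, 23.9% and 31.3%. Their highest were the small subunits Pole4 and Pold4 at 132 ± 23.1 and 109 ± 5.65 TPM and the MCM-binding protein Mcmbp at 102 ± 6.68 TPM, and their lowest were Recql4 and Mcm8 at 1.23 ± 0.69 and 1.71 ± 0.58 TPM. The small subunit Pole4 thus stood far above the catalytic Pole. Chromatin assembly genes at forks were called in 8 of 9, a share near that of all genes, with 4 of them highest in library 1 and 4 in library 3. The histone chaperones Rbbp4, Asf1a and Nasp were highest, at 269 ± 21.4, 74.5 ± 2.85 and 54.3 ± 7.18 TPM, and Chaf1a and Uhrf1 lowest, at 4.74 ± 2.01 and 18.8 ± 12.3 TPM.

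In the wider nucleotide supply list, all 25 genes were called (80% of all genes tested). Of these, 6 were highest in library 1 (25.3% of all genes), 5 in library 2 (23.3%) and 14 in library 3 (31.4%). The lowest was library 1 for 14 (24.8% of all genes), library 2 for 6 (23.9%) and library 3 for 5 (31.3%). Its highest were Samhd1, which degrades deoxynucleotides, at 536 ± 25.5 TPM, Ctps2 at 147 ± 14.6 TPM and Dtymk, the thymidylate kinase, at 125 ± 13.0 TPM. Dctd, the deoxycytidylate deaminase, was at 5.22 ± 1.19 TPM, near the low end of the list.

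The median mitosis gene stood farther apart between libraries 1 and 2 than the median replication gene. All 20 were called (80% of all genes tested), 19 highest in library 1 (25.3%) and 18 lowest in library 2 (23.9%). Their medians were 1.04, -1.13 and 0.16 in log2(CPM + 0.5) for libraries 1, 2 and 3. Birc5, Ube2c and Ccnb2 were the highest, at 47.1 ± 24.5, 34.96 ± 22.7 and 34.4 ± 16.0 TPM, Bub1 and Cenpe the lowest, at 2.62 ± 1.40 and 3.18 ± 1.66 TPM, and Mki67, the proliferation marker, was at 27.3, 11.2 and 10.7 TPM. Of 13 tested genes for CDK inhibitors and quiescence, 11 were called (80% of all genes tested) and 3 were highest in library 1 (25.3% of all genes). Txnip, Btg1 and Klf2, genes of resting lymphocytes, were at 929 ± 284, 625 ± 85.1 and 512 ± 74.8 TPM, and the CDK inhibitor Cdkn2b was at 1.91 ± 0.50 TPM, with Cdkn2a under 1 TPM in every library. Txnip was at 788, 1256 and 743 TPM, highest in library 2. Over its list, 4 called genes were highest in library 2 (23.3% of all genes) and 3 were lowest there (23.9%), with a median of -0.11 in log2(CPM + 0.5).

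**Figure D5:**
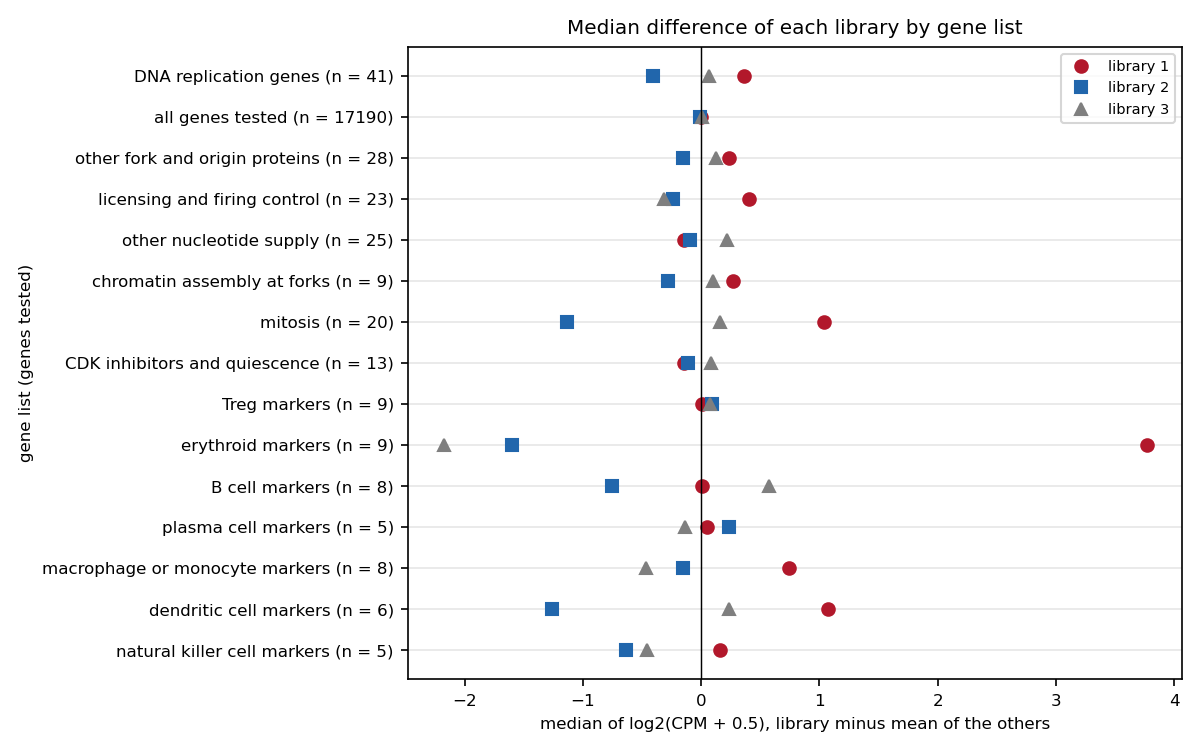
Median over each gene list of log2(CPM + 0.5) in a library minus the mean of the other libraries, for the replication genes, all genes tested, related pathways and marker lists with at least 5 genes tested. Mitosis genes stand at 1.04 and -1.13 in libraries 1 and 2, and erythroid markers stand apart in library 1.

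Markers of other cell types also differed between libraries. The 3 libraries held 28419259 to 31959927 gene reads. All 9 regulatory T cell markers were detected, with summed levels of 5528, 5449 and 5596 TPM in libraries 1, 2 and 3. The largest terms of that sum were Trac (2177, 2047 and 2446 TPM) and Cd3e (1024, 931 and 965 TPM). Foxp3 was at 135, 150 and 106 TPM and Cd4 at 408, 434 and 259 TPM. All 9 were called (80% of all genes tested), 1 highest in library 1 (25.3% of all genes), 4 in library 2 (23.3%) and 4 in library 3 (31.4%). Erythroid markers were called and highest in library 1 for 9 of 9 genes matched (25.3% of all genes tested), with summed levels of 14065, 1181 and 814 TPM. Against the same 25.3% of all genes, markers of macrophages or monocytes were highest in library 1 for 7 of 8 (331, 175 and 171 TPM summed). Those of dendritic cells were so for 5 of 6 tested (582, 164 and 371 TPM summed), and those of neutrophils for 4 of 4 tested (17.8, 1.48 and 3.42 TPM summed). The largest terms of the dendritic cell sum were Cd74 (460, 138 and 301 TPM) and H2-Aa (115, 22.9 and 66.7 TPM). Only 2 of 8 dendritic cell genes and 0 of 8 neutrophil genes were detected. B cell markers summed to 385, 291 and 383 TPM and were lowest in library 2 for 7 of 8 (23.9% of all genes tested).

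CD8 T cell markers summed to 26.2, 20.4 and 28.4 TPM. From library 2 to library 3, summed levels were close for the macrophage list and higher for the dendritic cell, neutrophil, B cell and CD8 T cell lists. They were lower for the erythroid list and for the plasma cell (217 to 167 TPM), thymocyte (97.3 to 80.2 TPM) and natural killer cell (42.8 to 30.9 TPM) lists. Single genes made up most of these last sums in library 2. Xbp1 went from 169 to 126 TPM in the plasma cell list and Cd1d1 from 96.15 to 79.05 TPM in the thymocyte list. Only 1 of 6 thymocyte genes was detected. In the natural killer cell list Gzma went from 31.4 to 16.4 TPM and Prf1 was also lower, while Klrb1c, Klrd1 and Eomes were higher. The median member was 1.27-fold higher in library 3 than in library 2 in CPM, with 31 of 41 above 1. The part of these cells in the differences between libraries was not tested. In bulk RNA, fewer cycling cells and less of these transcripts per cell cannot be told apart. The difference of each library also went with transcript length across the 17190 genes, with Spearman's rho of 0.15, 0.19 and -0.27 for libraries 1, 2 and 3, a description over genes. With a trend in length and GC content removed, the median member stood at 0.28, -0.35 and 0.07 in libraries 1, 2 and 3.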

How the data were processed

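PolyA RNA was measured in 3 libraries. The authors deposited, per library, a gene table and a transcript table in mm10 with GENCODE M21, per the deposited library notes. Per the file headers these hold expected counts, TPM, FPKM, the percent of a gene on each transcript and posterior means of these. A smaller gene table with raw counts as whole numbers, also deposited, follows GENCODE M4. Any detail of aligner, counter, kit or strandedness was not given in the sources used here. Spike-in and tRNA entries (0.166% to 0.229% of reads) were left out of library sizes.

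Expected counts were rounded and scaled by TMM (edgeR 4.0.16, R 4.3.3). The 17190 genes averaging at least 10 reads entered a chi-square test with 2 degrees of freedom, adjusted by Benjamini-Hochberg at 0.05 (scipy 1.17.1, Python 3.11.15). With 1 group, a quasi-likelihood test has no contrast, so the test compares libraries, not conditions. An exact permutation test of 3 against 3 cannot go below p = 0.10. The script was tested on simulated data. Library differences were taken on log2(CPM + 0.5). Near copies were sought with BLAST 2.17.0 at 90% identity over at least 200 bases and 20% of the query. The copies outside the member loci held at most 2.78% of a member's reads.

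All 41 members are named, and of each other list the 3 highest and 2 lowest by mean TPM, with the cyclins E, geminin, Cdc7, Dbf4, E2f1, E2f2, E2f8 and Mki67. A gene named by this rule is not reported here. Members and lists were chosen with earlier results of these data known. Alternatives were DESeq2 1.42.0 size factors, total reads, other filters, posterior means, TPM, FPKM, the smaller table, protein-coding transcripts, a length and GC trend, and leaving out each library. The trend's effect on the order of libraries, the pairs of libraries tested alone, the library order over protein-coding transcripts and the share of reads on them were chosen after seeing the data.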

Additional observations from a re-analysis of the deposited data

How the results depend on the processing

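Counts of members called by the chi-square test were 40 under each scaling and filter and with posterior means, 35 in the smaller table, and 34 to 38 when 1 library was left out. The shares of all genes tested that were called were 47.8% to 87.5% under the scalings, filters and posterior means. They were 65.3% in the smaller table and 54.1% to 66.2% with 1 library left out. Leaving out library 3 lowered the calls over all genes from 13747 of 17190 to 8880 of 16415. Members highest in library 1 numbered 22 to 33 and lowest in library 2 29 to 31 over the alternatives, 33 being by TPM of protein-coding transcripts. In the main setting, 25.3% of all genes tested were called and highest in library 1, and 23.9% called and lowest in library 2. The library 3 median of 0.06 changed sign, to -0.26 without library 2 (0.33 without library 1) and to -0.003367 on log2(TPM + 1); the cause was not tested, and this value has no stable direction. The median member level was 24.46 TPM over protein-coding transcripts, a smaller quantity by construction. Without each library in turn, between 37 and 41 of 55 subunit pairs differed beyond the spread. No call was made on the difference of Pcna (adjusted p = 0.407), Gins3, Orc3, Orc4 or Pola2 in the smaller table by the same test. No paired analysis was possible because there is 1 group. The lowest member count, 54 reads, limits the precision of Gins1.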
